A study of Mus musculus with 6 samples.

Results

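The 10 genes described here serve the osteoclast, the multinucleated cell that resorbs bone. They are Acp5, Ctsk, Car2, Clcn7, Ostm1, Calcr, Ocstamp, Dcstamp, Oscar and Itgb3, and they were taken by name: every probe set whose platform annotation gives exactly 1 gene symbol, that symbol being 1 of the 10. All 10 were found among the 18193 genes so named, with 14 probe sets of the array's 45101, of which Clcn7 had 3, Oscar and Itgb3 2 each and the others 1. The RNA came from parietal bones, which form much of the calvaria or skull cap, of mice at postnatal day 10. Mutant animals, called 13del-tg, carry a transgene, Col10a1-13del, and are labelled as having bone overgrowth, and the controls are wild-type littermates. The labels give 3 arrays for each genotype, with neither the strain, the sex nor the promoter of the transgene.

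The columns given for control 1 and 13del-tg 1 hold the same value at each of the 45101 probe sets. That array, called the shared array below, carries both labels, so its values are shown apart, and 13del-tg 2 and 3 were compared with controls 2 and 3. Values are MAS5 intensities, a brightness per probe set on a linear scale, and differences are on the scale log2(intensity + 16), 13del-tg minus control. Col10a1, read as a check of the labels, had intensities of 149.8 and 158.2 in controls 2 and 3, 15689 and 11584 in 13del-tg 2 and 3 and 152.2 on the shared array. The shared array thus lay at the level of the controls for Col10a1, against its 13del-tg label. High Xist, 15206 against 29.9 to 84.5 on the others, marked 13del-tg 3 as the 1 female sample of the 5. Osteoblast markers were bright, with summed intensities over 9 genes of 144159 and 160940 in the controls, 157172 and 180757 in 13del-tg and 103460 on the shared array. The ratio of the 3′ to the 5′ Gapdh control probe set, a sign of RNA integrity, was 0.737 to 0.866 over the 5 arrays, and macrophage markers were present too (12362 and 12845 against 11082 and 13185 over 10 genes).

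An osteoclast forms when monocyte precursors fuse, seals a patch of bone with integrins and pumps acid into the space beneath it. Carbonic anhydrase supplies the protons, a chloride channel balances the charge, and cathepsin K digests the collagen that the acid lays bare. Fusion needs the paired membrane proteins DC-STAMP and OC-STAMP, the receptor OSCAR gives a co-stimulatory signal, and calcitonin acting on its receptor halts resorption. Several of these genes are known targets of MITF, PU.1 and NFATc1, the transcription factors of the lineage. MITF binds short motifs of the E-box type. In whole bone, fewer osteoclasts and less RNA per osteoclast cannot be told apart.

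For a view of the letters on which such factors act, promoters from RefSeq (build GRCm38.p6) were searched in the 250 bases before each annotated start. A sequence was found for 6 of the 10 genes, with 10 starts in all, and Car2, Itgb3, Dcstamp and Ocstamp had no match. The motifs were the E-boxes CACGTG and CATGTG, the AP-1 motif TGANTCA, the NFAT core GGAAA and the PU.1-type GAGGAA, each on both strands. GGAAA overlaps GAGGAA where an A follows. Either E-box stood in 4 of 10 of these windows, against 17.6% of 32851 windows of all genes. CACGTG alone was in 1 (6.02% of all), CATGTG in 3 (12.3%), TGANTCA in 0 (6.75%), GGAAA in 6 (55.6%) and GAGGAA in 2 (23.3%). A match is a description of the sequence and not a bound site. Shown here, 5′ to 3′ on the gene's strand with E-boxes in capitals, are the start of Acp5 with such a box (chr9:22130599-22130848, minus strand), the Clcn7 start with CACGTG (chr17:25133141-25133390, plus strand), the Oscar start (chr7:3616158-3616407, minus strand) and, as one without an E-box, the Ctsk start (chr3:95498960-95499209, plus strand).
Acp5: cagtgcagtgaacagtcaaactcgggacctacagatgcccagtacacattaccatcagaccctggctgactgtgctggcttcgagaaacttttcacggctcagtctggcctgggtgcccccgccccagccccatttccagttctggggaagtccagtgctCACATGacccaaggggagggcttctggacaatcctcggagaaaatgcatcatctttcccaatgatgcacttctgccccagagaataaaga
Clcn7: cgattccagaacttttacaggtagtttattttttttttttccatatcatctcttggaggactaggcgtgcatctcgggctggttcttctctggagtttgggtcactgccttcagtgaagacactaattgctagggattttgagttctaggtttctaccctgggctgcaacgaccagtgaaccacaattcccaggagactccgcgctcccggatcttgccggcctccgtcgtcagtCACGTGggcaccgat
Oscar: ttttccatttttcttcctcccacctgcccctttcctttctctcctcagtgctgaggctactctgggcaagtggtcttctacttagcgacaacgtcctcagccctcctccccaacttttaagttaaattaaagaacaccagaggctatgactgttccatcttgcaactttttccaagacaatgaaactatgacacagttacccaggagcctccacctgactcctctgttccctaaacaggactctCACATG
Ctsk: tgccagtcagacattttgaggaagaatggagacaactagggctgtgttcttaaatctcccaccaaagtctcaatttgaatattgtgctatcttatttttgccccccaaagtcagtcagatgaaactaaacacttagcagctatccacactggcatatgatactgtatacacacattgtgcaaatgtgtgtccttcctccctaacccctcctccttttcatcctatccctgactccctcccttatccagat
The box began 90 bases before the start in Acp5, 15 in Clcn7 and 6 in Oscar. In Acp5 and Oscar it reads CATGTG on the opposite strand. Acp5, Clcn7 and Oscar with an E-box and Ctsk, Calcr and Ostm1 without one are set beside their measured values in what follows.

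Across the 10 genes most values were somewhat lower in 13del-tg and none passed the test, with the widest difference in Car2 and the narrowest in Ctsk. Of the 14 probe sets, 13 had a difference below 0, against 58.6% of the 27022 tested, and the median was -0.36 against -0.075 for all tested. All 14 passed the filter on dim probe sets. By limma with Benjamini-Hochberg adjustment over all 27022, 0 of the 14 passed at 0.05, with adjusted p from 0.766 to 0.998, and 1, that of Car2, had an unadjusted p under 0.05. Of all probe sets tested 0.037% passed, and 3.72% were lower at an unadjusted p under 0.05. For 7 of the 14 both 13del-tg arrays were lower than either control, where 23.0% of all tested probe sets did so, and above both for 0 (12.6% of all). With 2 arrays in each group an exact permutation test of 1 gene cannot give a p below 0.333, and the number of arrays limits the precision throughout. The probe sets of a gene share its RNA and are not replicates.

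**Figure D1:**
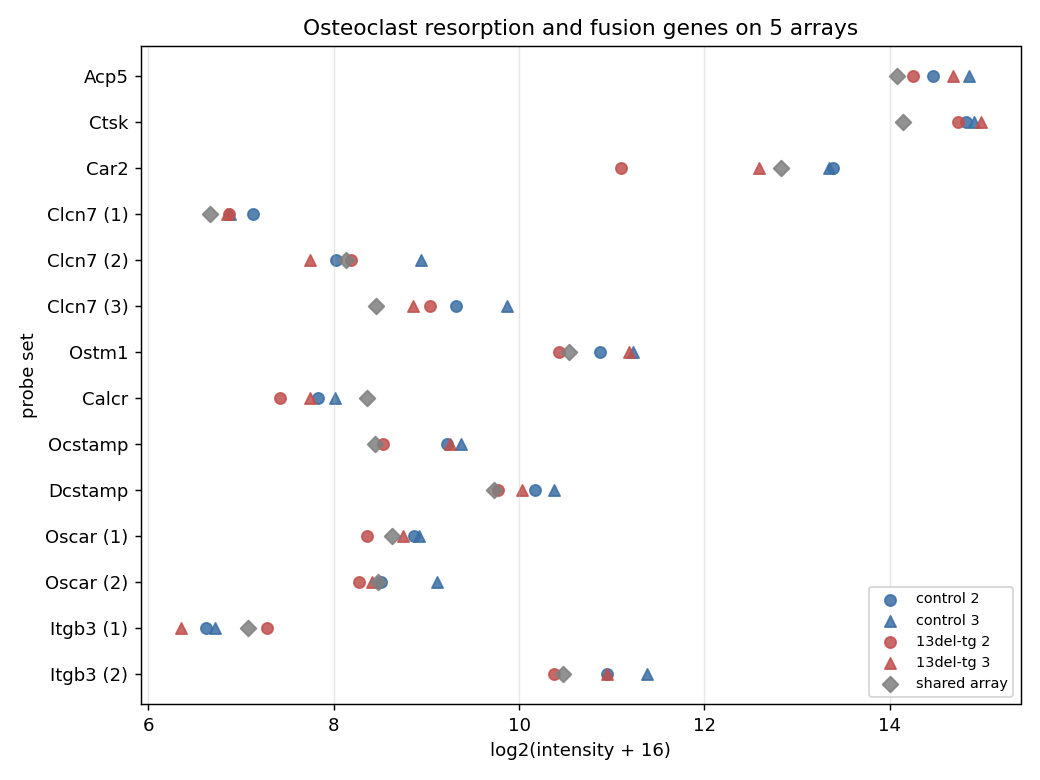
log2(intensity + 16) of each of the 14 probe sets (rows; numbers in brackets count the probe sets of a gene) on controls 2 and 3, 13del-tg 2 and 3 and the shared array; each point is 1 array. Car2 is the row in which the 2 genotypes stand farthest apart, with 2186.5 and 6155.4 in 13del-tg against 10721 and 10378 in the controls, whereas for Ctsk the 4 points run together and the shared array lies to their left.

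The resorption enzymes come first. Ctsk, which encodes cathepsin K, the protease that digests bone collagen, had intensities of 28936 and 30767 in controls 2 and 3, 27311 and 32289.9 in 13del-tg 2 and 3 and 18128 on the shared array. The 13del-tg arrays were the lowest and the highest of the 4, so the groups overlapped, and the shared array lay below them all. Its difference was -0.0068 (SE 0.18, limma adjusted p = 0.998), with a 95% interval from -0.42 to 0.41, so these arrays bound a change of Ctsk more closely than that of any other of the genes. Acp5, tartrate-resistant acid phosphatase and the classical stain for osteoclasts, had 22644 and 29708 in the controls, 19481 and 26366 in 13del-tg and 17232 on the shared array. Here too the groups overlapped, and control 2 and 13del-tg 2 were the dimmer arrays of their genotypes. The Acp5 difference was -0.19 (SE 0.22, adjusted p = 0.914), with an interval from -0.71 to 0.32. The signs of both rest on single arrays: Acp5 came to 0.024 and Ctsk to 0.11 without 13del-tg 2, and both reached the control level or passed it without control 3 (0.0013 and 0.037). Centring the arrays on their medians gave 0.18 for Ctsk, where it also moved the median of all probe sets from -0.075 to 0.11. Quantile normalization moved the values the other way, to -0.19 for Ctsk and -0.37 for Acp5 (limma adjusted p = 0.94 for each). The median of all probe sets was then 0.00012.

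Car2 encodes carbonic anhydrase II, which makes the protons of the resorption space and is abundant in red cells as well. Its intensity was 10721 and 10378 in controls 2 and 3, 2186.5 and 6155.4 in 13del-tg 2 and 3 and 7239.2 on the shared array. Both 13del-tg arrays were below both controls, which differed from each other by 0.047 on the log2 scale, and the shared array lay between the groups. The 13del-tg arrays themselves were 1.49 apart, nearly as wide as the difference of -1.52 (SE 0.41) between the genotypes, which corresponds to 34.9% of the control level. Its limma adjusted p was 0.766 (unadjusted p = 0.0061, rank 216 of 27022), so Car2 did not pass. The size rests on 13del-tg 2: without it the difference was -0.78, and without 13del-tg 3, the female sample, it was -2.26 with an adjusted p of 0.0165, a fit in which 1 array stands for the genotype and is assumed to vary like the controls. With the shared array as a control it was -1.34, and with it as 13del-tg -1.19.

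Red cell precursors also make carbonic anhydrase II, and their markers varied across the arrays much as Car2 did. Of 12 erythroid markers, 8 were measured above the filter, and all 8 were lower on both 13del-tg arrays than on both controls (26.3% of 12859 genes were), with a median difference of -2.16 (-1.37 without 13del-tg 2) against -0.074 over all genes. By limma over all probe sets none passed (0.07% of genes did), while each of the 8 was under 0.05 before adjustment. At that level 4.68% of all genes were lower. The smallest p belonged to Alas2, the erythroid heme synthesis enzyme, at -1.69 (SE 0.20, adjusted p = 0.0771), followed by Klf1, the erythroid transcription factor, at -2.49 (SE 0.36) and the membrane skeleton gene Epb42 at -2.55 (SE 0.44). Epb42 was above the filter through its control values, since 13del-tg 2 and 3 had 15.3 and 36.8. The list's summed intensity over 9 genes was 16339 and 19514 in the controls, 3633.1 and 6497.4 in 13del-tg and 10277 on the shared array. No marker was listed at 0, and Hba-a1, an alpha globin gene, stayed under the filter. Car2 and 6 of the 8 markers shared 1 order: controls highest, then the shared array, 13del-tg 3 and 13del-tg 2. This order was found in 2.89% of all genes. It was not particular to Car2 and red cell genes, since the Oscar probe set 1451710_at and the osteoclast genes Ptk2b and Atp6v0d2 had it too. Oligodendrocytes also carry carbonic anhydrase II. Of their 8 markers 5 were measured, at a median of -0.12 that was 0.18 without control 3 and -0.62 without 13del-tg 2, while Mog and Mobp were under the filter. Their summed intensity over 7 genes was 4245 and 4152.2 in the controls, 6130 and 3595.7 in 13del-tg and 9481.8 on the shared array. Mbp, a myelin protein gene, was highest on the shared array (5709.6) and had 0.29 (SE 0.50), Cldn11 had -0.69 (SE 0.31) and Mag -0.72 (SE 0.78). The part of red cell precursors and of oligodendrocytes in the Car2 difference was not tested.

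**Figure D2:**
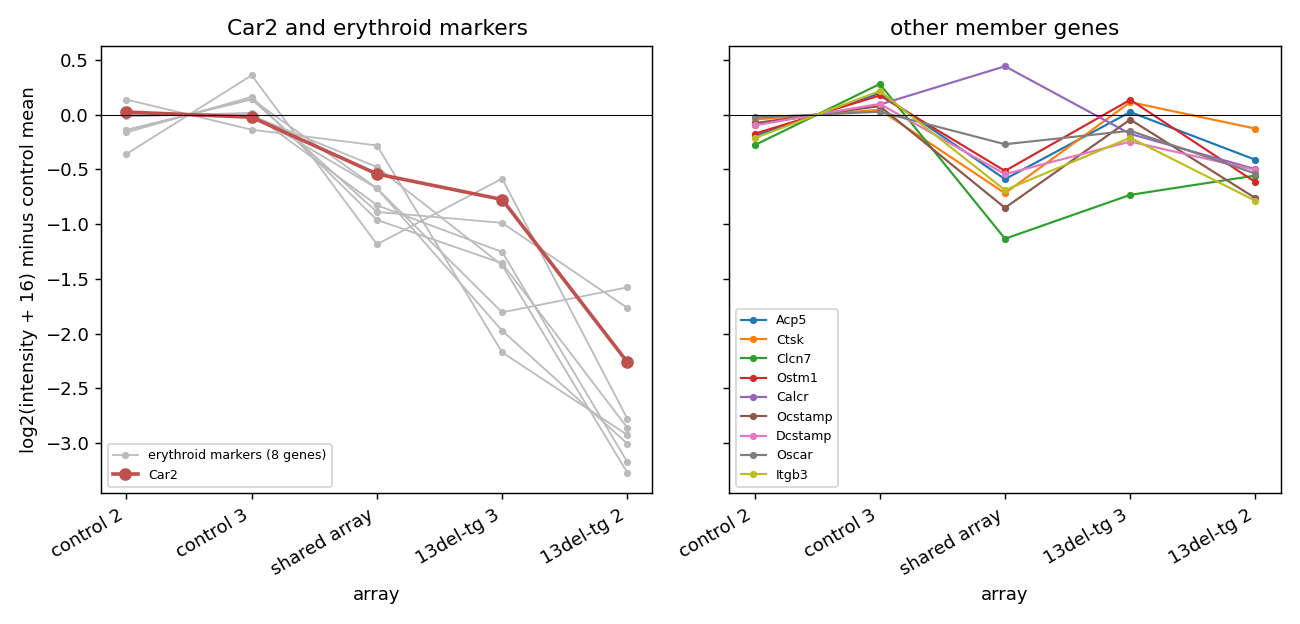
log2(intensity + 16) minus the mean of controls 2 and 3 on each of the 5 arrays, with lines joining the values of 1 gene; left, Car2 (red) and 8 erythroid markers (grey), right, the other 9 genes by their brightest probe set. Car2 is at -2.26 on 13del-tg 2 and -0.78 on 13del-tg 3, within the range of the erythroid markers but above their medians of -2.89 and -1.37. On the right Clcn7 on the shared array, at -1.13, is the lowest point.

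The genes most like Car2 over the 5 arrays, by the root mean square difference of centred log2 profiles among 12858 others, were Isg20 (0.12), Dennd6b (0.15), Niban3 (0.15), Cd79b (0.15), part of the B cell receptor, and Hcls1 (0.16), a protein of blood cells, where the profile of Car2 itself had an SD of 0.93. Isg20, for one, had 1332.8 and 1569.9 in the controls, 330.1 and 815.4 in 13del-tg and 988.3 on the shared array. Those nearest to Ctsk were Col8a2 (0.023), Egfr (0.024), Ube2e2 (0.040), Dsel (0.050) and the lysosomal protease gene Ctsb (0.055), against an SD of 0.33. Col8a2, a collagen VIII chain, had 3597.4 and 4025.5, then 3476.4 and 4093.0, and 2297.9 on the shared array, so what these genes have in common with Ctsk is level values on the 4 compared arrays and a low one on the shared array. The likeness is a description over 5 arrays.

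Acid secretion further needs the chloride-proton exchanger ClC-7 and its subunit OSTM1. The brightest Clcn7 probe set, 1452702_at, had 620.4 and 921.6 in the controls, 509.2 and 448.7 in 13del-tg and 336.0 on the shared array. Both 13del-tg arrays were below both controls, and the shared array was lower still. The difference was -0.64 (SE 0.28, limma adjusted p = 0.88, unadjusted p = 0.051), the second largest of the 14 in size, and it was -0.37 without control 3. It was -0.27 with the shared array as a control and -0.81 with it as 13del-tg. A further probe set, 1450408_at, had 244.9 and 476.3 in the controls against 274.9 and 197.7 in 13del-tg, and 265.5 on the shared array. Its controls were 0.92 apart, so the groups overlapped and the difference of -0.52 (SE 0.38) was smaller than the spread within the controls. The dimmest, 1425821_at, stayed near the filter's level of 61.9, with 124.2 and 101.5 against 101.2 and 99.0, and 85.1 on the shared array. Its difference of -0.14 (SE 0.37) turned to 0.039 with arrays centred on their medians and to 0.049 with quantile normalization, so of the 3 Clcn7 probe sets the brighter pair kept a negative sign under every alternative that could be fitted for them.

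Ostm1, whose product stabilises ClC-7, had 1865.9 and 2382.3 in the controls, 1369.4 and 2317.5 in 13del-tg and 1471.4 on the shared array. Only 13del-tg 2 stood below the controls, and 13del-tg 3 lay between them. The Ostm1 difference was -0.24 (SE 0.29, adjusted p = 0.917) and came to 0.14 without 13del-tg 2.

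Fusion was read from Dcstamp and Ocstamp. Dcstamp had 1141.3 and 1310.0 in controls 2 and 3, 856.7 and 1028.5 in 13del-tg 2 and 3 and 833.9 on the shared array. The groups did not overlap, and the difference of -0.38 (SE 0.23, limma adjusted p = 0.88) was 1.45 times the wider of the 2 within-genotype gaps, the largest such ratio among the 14. It ran from -0.51 to -0.25 when 1 array was left out. With the shared array as a control the Dcstamp difference was -0.19, and with it as 13del-tg -0.43. Ocstamp had 580.5 and 648.4 in the controls, 354.9 and 594.2 in 13del-tg and 332.9 on the shared array. Here 13del-tg 3 lay within the range of the controls and 13del-tg 2 well below it, so the groups overlapped. The Ocstamp difference was -0.40 (SE 0.31, adjusted p = 0.884), and without 13del-tg 2 only -0.045 was left. The 2 fusion genes therefore had like mean differences, of which that of Ocstamp rested on 1 array.

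The receptors followed. Calcr, the calcitonin receptor, had 211.0 and 241.8 in the controls, 155.3 and 198.1 in 13del-tg and 312.6 on the shared array. It was the 1 probe set of the 14 whose shared array lay above all 4 others, a position 27.1% of all tested probe sets held. The Calcr difference of -0.34 (SE 0.33, adjusted p = 0.90) grew to -0.48 with that array as a control. It shrank to -0.077 with that array as 13del-tg and to -0.18 without 13del-tg 2. Oscar, an immunoglobulin-like receptor that signals through the adaptor encoded by Fcer1g, had 451.8 and 469.1 in the controls and 311.9 and 414.2 in 13del-tg by probe set 1425442_at, with 378.9 on the shared array. By 1451710_at it had 349.2 and 538.4 in the controls and 293.4 and 324.0 in 13del-tg, with 340.4 on the shared array. Both 13del-tg arrays were below both controls by each probe set, with differences of -0.34 (SE 0.28, adjusted p = 0.888) and -0.47 (SE 0.31, adjusted p = 0.882), and the controls of the latter were 0.60 apart. They were -0.15 for the former without 13del-tg 2 and -0.17 for the latter without control 3.

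Itgb3 encodes the beta 3 integrin, which pairs with the alpha V chain in osteoclasts and with the alpha IIb chain in platelets. Its brighter probe set, 1455257_at, had 1961.4 and 2647.7 in the controls, 1313.5 and 1966.2 in 13del-tg and 1406.2 on the shared array. Control 2 and 13del-tg 3 were nearly equal, so the groups just overlapped, and the difference was -0.50 (SE 0.27, limma adjusted p = 0.88), or -0.21 without 13del-tg 2. The dim probe set, 1421511_at, gave the 1 positive value of the 14, 0.14 (SE 0.45), from 82.6 and 89.4 in the controls and 139.1 and 65.6 in 13del-tg, with 118.7 on the shared array, and turned to -0.32 without 13del-tg 2. The probe sets thus disagree in sign, the dim one within wide error.

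Both partners of this integrin were measured. The alpha V gene Itgav had 9762.6 and 9320.4 against 8257.7 and 10233 (difference -0.053, SE 0.19), and the alpha IIb gene Itga2b 341.3 and 502.6 against 200.2 and 380.6 (-0.56, SE 0.38). All 6 platelet markers measured of 8 were negative, as were 58.8% of all genes, at a median of -0.63. That median was -0.15 without 13del-tg 2 and -0.96 without 13del-tg 3. On both 13del-tg arrays 3 of the 6 were below both controls (26.3% of all genes were). By limma 1 was lower at an unadjusted p under 0.05 (4.68% of all genes were). That was Gp1bb, a platelet glycoprotein, at -0.70 (SE 0.29). Ppbp and Gp9 had -1.38 (SE 0.62) and -1.49 (SE 0.80), both mostly through 13del-tg 2. Ppbp had 543.4 there and 2871.9 in 13del-tg 3. Gp9 had 20.3 in 13del-tg 2, under the filter's level, and 250.6 in 13del-tg 3, within the range of the controls (241.5 and 282.5). The summed intensity of the 6 markers was 8783.4 and 8552.6 in the controls, 3938.8 and 7929.1 in 13del-tg and 5778.8 on the shared array, and none was at 0. The part of platelets and megakaryocytes in the Itgb3 difference was not tested.

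**Figure D3:**
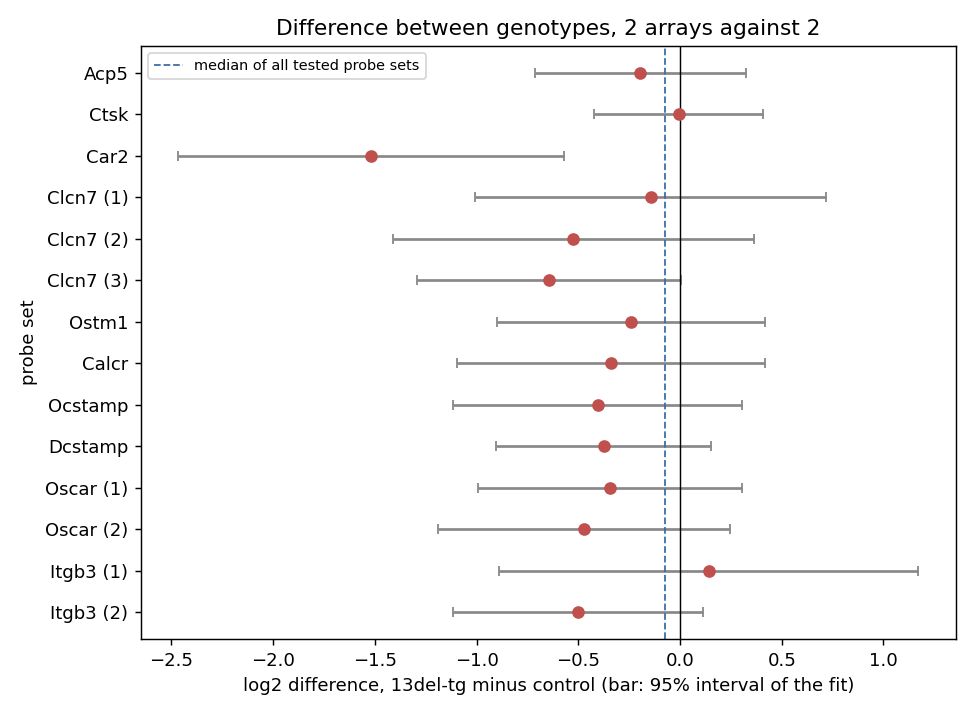
log2 difference, 13del-tg minus control, of each of the 14 probe sets (points) with its 95% interval from the limma fit (bars), a solid line at 0 and a dashed line at the median of all tested probe sets, -0.075. The interval of Car2, from -2.47 to -0.57, is the 1 that leaves out 0 before adjustment for the number of probe sets.

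Array by array, the low values lay mostly in 13del-tg 2. Against the mean of the controls the median of the 14 probe sets was -0.52 in 13del-tg 2 and -0.19 in 13del-tg 3, where all tested probe sets had -0.035 and -0.11. 13del-tg 2 was the lowest of the 4 compared arrays for 10 of the 14, a share of 71.4% beside 23.4% of all tested probe sets. The 3 Clcn7 probe sets and the dim Itgb3 one were the exceptions. The shared array, which carries both labels and the control level of Col10a1, had a median of -0.53 for the 14. It was below all 4 others for 6 of them (20.9% of all tested). Low values there were not particular to the 14: osteoblast markers had a median of -0.59, other resorption genes -0.45 and macrophage markers -0.22. Neutrophil, oligodendrocyte and skeletal muscle markers had 0.21, 0.66 and 1.94, and all tested probe sets -0.00034. The labels do not settle the genotype of the shared array, and the cause of its low values was not tested. Counting it as a control brought the median difference from -0.36 to -0.22, and counting it as 13del-tg gave -0.38.

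Some other cells, though not all, varied along with 13del-tg 2. That array was the lowest of the 4 for 7 of 8 erythroid and 6 of 6 platelet markers. The count was 3 of 9 for macrophage, 1 of 9 for osteoblast, 0 of 5 for oligodendrocyte and 0 of 8 for skeletal muscle markers. Of all genes, 26.4% had their lowest value of the 4 on 13del-tg 2. Neutrophil markers were lowest there of the 4 arrays for 8 of 8 genes, with a median against the controls of -1.59 in 13del-tg 2, 0.17 in 13del-tg 3 and 0.21 on the shared array, and a summed intensity of 42237 and 61207 in the controls, 18144 and 57524 in 13del-tg and 53165 on the shared array. Ltf, Ngp and Mpo, all of neutrophil granules, had differences of -1.05 (SE 0.43), -0.93 (SE 0.43) and -0.91 (SE 0.59), with overlapping groups. Macrophage markers, of the lineage from which osteoclasts arise, were nearly level, with 6 of 9 negative (58.8% of all genes were). Their median was -0.073 (0.069 without 13del-tg 2, -0.15 without 13del-tg 3, -0.14 without control 3). Cx3cr1, Cd68 and Mpeg1 had -0.58 (SE 0.35), -0.26 (SE 0.19) and -0.25 (SE 0.28). Osteoblast markers had a median of 0.087 (0.028 without control 2, 0.15 without control 3, 0.17 without 13del-tg 2). Of the 9, 3 were negative (58.8% of all genes were), among them Sost at -1.65 (SE 0.24, limma adjusted p = 0.14). Ifitm5 and Ibsp had 0.52 (SE 0.18) and 0.34 (SE 0.18). Skeletal muscle markers had a median of 1.70, which was 0.27 without control 3 and 3.06 without control 2, with Ckm at 1.70 (SE 0.69), Acta1 at 1.27 (SE 0.53) and Mylpf at 1.69 (SE 0.74), and their summed intensity was 22646 in control 3 against 140048 to 198064 on the other 4 arrays. None of these markers passed by limma over all probe sets, and their part in the values of the 10 genes was not tested.

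**Figure D4:**
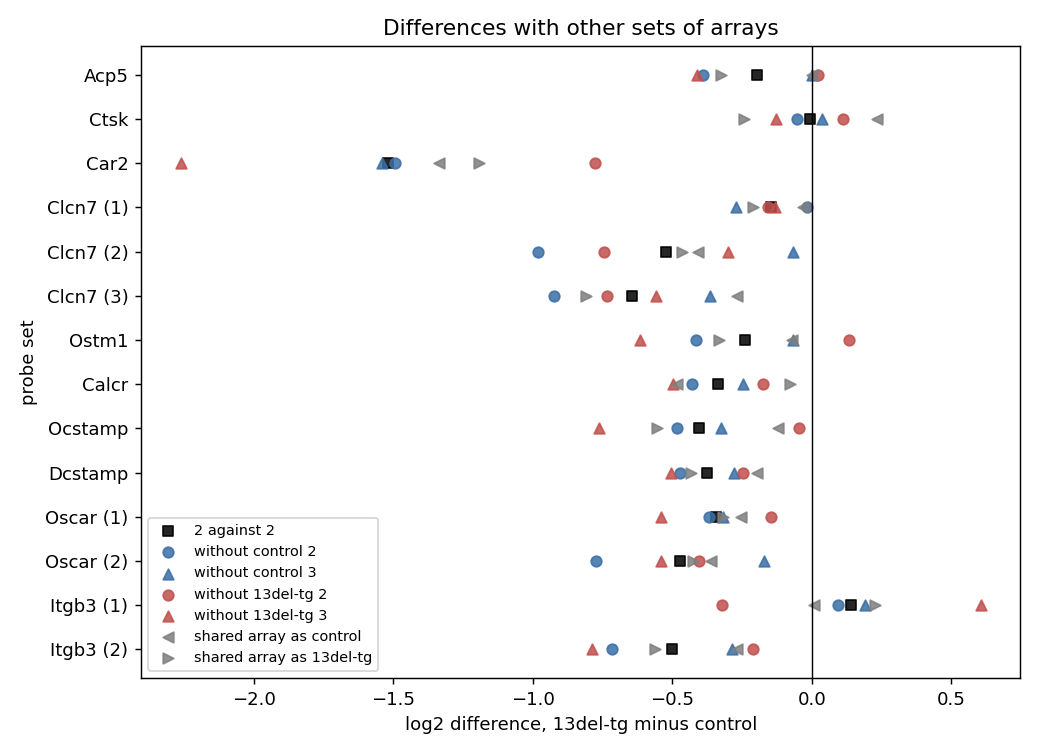
log2 difference, 13del-tg minus control, of each of the 14 probe sets with all 4 arrays (black), with 1 array left out (blue and red) and with the shared array added to a group (grey). Car2 runs from -2.26 to -0.78 and keeps its sign in each of these fits, whereas the points of Acp5, Ctsk, Ostm1 and the dim Itgb3 probe set fall on both sides of 0.

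The rest of the osteoclast programme was read from lists chosen by role, with each gene by its brightest probe set. All 8 other resorption genes were negative (58.8% of all genes were), at a median of -0.49, and 7 had both 13del-tg arrays below both controls (26.3% of all genes did). That median ran from -0.57 to -0.37 when 1 array was left out. It was -0.31 with arrays centred on their medians, -0.29 with the shared array as a control and -0.33 with it under both labels. By limma none of the 8 passed over all probe sets and 3 were under 0.05 before adjustment, where 4.68% of all genes were lower at that level. Mmp14, a membrane-bound metalloproteinase, went from 12455 and 14895 to 10039 and 8110.5 with 8499.5 on the shared array, a difference of -0.59 (SE 0.20). Atp6v0d2, a proton pump subunit that also serves fusion, went from 5001.7 and 5239.8 to 2753.1 and 3968.7 with 4534.4 on the shared array, -0.63 (SE 0.22). Mmp9, the gelatinase of osteoclasts and neutrophils, had 15387 and 17577, then 11659 and 12018, and 10596 on the shared array, -0.47 (SE 0.18). These 3 had an adjusted p of 0.88, and Mmp14 is made by many cells of bone besides osteoclasts.

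Of 13 receptors and signalling genes 12 were measured, all of them negative (58.8% of all genes were), at a median of -0.17. The median rests on 13del-tg 2: it was -0.0026 without that array and -0.43 without 13del-tg 3, and 0.010 with arrays centred on their medians. None passed by limma, 1 was under 0.05 before adjustment (4.68% of all genes were lower at that level) and 5 had both 13del-tg arrays below both controls (26.3% of all genes did). That 1 was Ptk2b, a kinase downstream of integrins, with 246.4 and 239.3 in the controls, 69.3 and 131.3 in 13del-tg and 151.0 on the shared array (-1.21, SE 0.39). Plcg2, a phospholipase of the co-stimulatory pathway, had -0.54 (SE 0.28) and Csf1r, the M-CSF receptor, -0.26 (SE 0.17). The adaptor of OSCAR, Fcer1g, had -0.17 (SE 0.23), with overlapping groups.

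Of 10 transcription factors of the lineage 9 were measured, with 7 negative (58.8% of all genes were) and a median of -0.093. The median moved with every array: it was -0.42 without 13del-tg 2, -0.31 without 13del-tg 3, -0.27 without control 2 and -0.17 without control 3, and 0.091 with arrays centred on their medians. By limma none passed, and 3 were lower at an unadjusted p under 0.05, as were 4.68% of all genes. Prdm1, a repressor that promotes osteoclast formation, had 417.3 and 412.8 in the controls and 255.3 and 195.2 in 13del-tg (-0.85, SE 0.30), with 474.8 on the shared array. Mitf, whose product binds E-boxes like those printed above, had 1028.3 and 1097.7 in the controls, 779.2 and 549.4 in 13del-tg and 724.5 on the shared array (-0.69, SE 0.26). Irf8, an inhibitor of osteoclast formation that also serves other myeloid and B cells, had -0.83 (SE 0.32), and Nfatc1, the central factor of the lineage, -0.055 (SE 0.24). The 3 genes with an E-box printed above, Acp5, Clcn7 and Oscar, had -0.19, -0.64 and -0.34 by their brightest probe sets. Of the genes whose searched windows held no E-box, Ctsk had -0.0068, Ostm1 -0.24 and Calcr -0.34. None of these genes passed the threshold, and a link between E-boxes and the differences was not tested.

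Of 7 other fusion genes 4 were negative (58.8% of all genes were), at a median of -0.087, near the -0.074 over all genes. That median was 0.0030 without control 3, 0.038 without 13del-tg 2 and -0.029 without 13del-tg 3. None of the 7 had an unadjusted p under 0.05 or passed the limma threshold. Adam8, a membrane protease, had -0.59 (SE 0.37), Cd44, a hyaluronan receptor of many cells, 0.25 (SE 0.19) and Sirpa, the receptor of CD47, -0.24 (SE 0.23). Tests were two-sided throughout, and nothing in these lists was tested as a set.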

How the data were processed

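The authors deposited 1 linear intensity for each probe set and array. MAS5 is named, without a version, in the submitters' processing notes. Each array's trimmed mean, leaving out 2% at each end, was 500.003. Values were used as log2(intensity + 16). The 64 control probe sets were left out, and probe sets whose mean over the 5 distinct arrays reached the 40th percentile (intensity 61.9) were kept, 27022 in all. Symbols came from the platform annotation (34945 probe sets with 1 symbol, 932 with several, 9160 unnamed here), updated by gene number. The identical array was left out of the fit, and 2 arrays were set against 2 in R 4.3.3 by limma 3.58.1 (lmFit and then eBayes, using its trend), with Benjamini-Hochberg adjustment over all kept probe sets, 2 residual and 6.01 prior degrees of freedom and a median SE of 0.32. A simulation of 27022 probe sets used independent normal errors drawn from the fitted spread. In it 2.2% of changes by 1 on the log2 scale, 49.0% of those by 2 and 94.4% of those by 4 were recovered, with 4.39% of calls false. It held no shifts common to many genes of an array, which the marker lists here show, so these shares need not hold for the real arrays. The labels call the samples biological replicates. Of the 10 genes every probe set is named, of each list up to 3 genes with the smallest p and single genes for a stated link (Itgav, Itga2b, Fcer1g, Nfatc1, chosen after values were seen), and the 5 nearest to Ctsk and to Car2. The members and lists were chosen with earlier results of these data known. List genes without a probe set of 1 symbol were not analysed here. Alternatives covered the pseudocount, filter, scaling, eBayes settings, replicate block, arrays left out and the shared array's place.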

Additional observations from a re-analysis of the deposited data

Results flagged for a closer look

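On the shared array, which the main comparison leaves out, 2 of the 14 probe sets were brighter than on both controls. Calcr had an intensity of 312.6 there, against 211.0 and 241.8 in the controls and 155.3 and 198.1 in 13del-tg. The dim Itgb3 probe set, 1421511_at, had 118.7 there, against 82.6 and 89.4 in the controls and 139.1 and 65.6 in 13del-tg.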

How the results depend on the processing

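Over 17 alternatives the 10 genes' 232 values kept their direction and side of the threshold in 219, reversed in 11 and passed it in 2, both of Car2. The median of the 14 probe sets ran from -0.52 to -0.19 when 1 array was left out, with 11 to 13 below 0 and 0 or 1 past the threshold. Reversed were Acp5 (-0.41 to 0.024 with 1 array left out, 0.0013 without control 3, 0.024 without 13del-tg 2, 0.0020 with the shared array as control), Ctsk (-0.13 to 0.11, with 0.037, 0.11 and 0.23 in these settings, and 0.18 with arrays centred on their median), Clcn7 1425821_at (0.049 with quantile normalization, 0.039 centred), and, without 13del-tg 2, Ostm1 (0.14, range -0.62 to 0.14) and Itgb3 1421511_at (-0.32, range -0.32 to 0.61). List medians changed sign for transcription factors (0.091 centred), other fusion genes (-0.11 to 0.038 with 1 array left out, above 0 at 0.0030 without control 3 and 0.038 without 13del-tg 2, 0.097 centred, 0.072 with the shared array as control), osteoblasts (-0.039 with quantile normalization, -0.12 with the shared array as 13del-tg), receptors (0.010 centred), macrophages (0.11 centred, 0.069 without 13del-tg 2), neutrophils (0.17 without 13del-tg 2) and oligodendrocytes (0.033 with quantile normalization, 0.061 centred, 0.11 with a 60th percentile filter, 0.18 without control 3, 0.085 without 13del-tg 3, 0.030 with the shared array as 13del-tg). The cause was not tested.

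Counts past the threshold over all probe sets, 2 higher and 8 lower, moved widely. Leaving out 1 array gave 1 to 199 higher and 5 to 43 lower, both maxima without control 2. Higher calls were 1 with a pseudocount of 1, no filter, a 60th percentile filter, quantile normalization, no trend or the shared array as control, and 0 with it as 13del-tg or under both labels. Lower calls were 1 with a pseudocount of 1, a 60th percentile filter or quantile normalization, 5 with a pseudocount of 64, 21 centred, 18 with robust eBayes, and 0 with no filter, no trend, the shared array as control or under both labels. Same-numbered arrays share a number only, and their deviations correlated at 0.216 across probe sets, a value that both pairs must share in this design. The replicate block gave 330 higher and 338 lower calls, with 1 of the 14 past the threshold, Car2 (-1.52, limma adjusted p = 2.33e-10, on 1 residual degree of freedom). Without 13del-tg 3, Car2 passed too, as 1 of the 14, and over all its alternatives its adjusted p reached 1. A sex-linked covariate was not run, since Xist differed within 13del-tg only. Dim probe sets, near 61.9, limit what can be read for Clcn7 1425821_at and Itgb3 1421511_at.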
